A study of Homo sapiens with 6 samples.

Results

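The transcription factor AP-1 is a dimer built from proteins of the FOS and JUN families, and the results below describe the 7 genes that encode these families, FOS, FOSB, FOSL1, FOSL2, JUN, JUNB and JUND. Members were picked as the named genes of the 2 families, with earlier results of these data known, and all 7 were found among the 58825 genes of the table and passed the filter on low counts. In SKOV3 cells treated with siRNA against EIF5A2, the mRNA of FOS was 6.05-fold and that of FOSB 8.13-fold the level of the negative control (n = 3 libraries per group). JUNB (1.61-fold) and JUND (1.65-fold) rose as well, whereas FOSL1, the most abundant of the 7, fell to 47.5% of its control level. JUN was at 67.4% of the control and FOSL2 at 1.22-fold, both within the fold limit of 1.5 that was set for a call.

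AP-1 proteins pair through a leucine zipper and bind DNA through an adjacent basic region, with short palindromic sites as their common target. JUN proteins can pair with one another, whereas FOS proteins depend on a JUN partner for DNA binding. FOS, FOSB, JUN and JUNB are classical immediate early genes, transcribed within minutes of a growth or stress signal, and their mRNAs are usually short-lived. FOSL1 and FOSL2 encode the FOS-related antigens FRA-1 and FRA-2, which lack the strong carboxy-terminal activation domain of FOS and FOSB and are often abundant in invasive carcinoma cells.

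The data were RNA-seq libraries of SKOV3, an established human ovarian cancer cell line, with 3 libraries from cells given negative control siRNA (NC) and 3 from cells given si-EIF5A2. Both groups went through the same transient transfection, and no untransfected cells were sequenced. EIF5A2 is a translation elongation factor that carries the amino acid hypusine, and the time of 48 h after transfection is given for the series as a whole. The labels do not say whether libraries of a group came from separate cultures, so p-values measure only the spread between these samples, which may be technical.

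Library totals lay between 46900204 and 74142267 estimated counts, of which about 3.84 make up 1 sequenced fragment. Levels are given as CPM (normalized counts scaled to a common library size), and 3 fragments, the limit that a count of 0 allows, came to 0.158 to 0.245 CPM. All CPM values below use TMM-normalized library sizes. EIF5A2 itself was at 29.1 ± 1.15 CPM in NC against 3.69 ± 0.817 in si-EIF5A2 (mean ± SD, n = 3), which was 12.7% of the control, with no overlap between the groups. Of the 6 markers fixed for an epithelial ovarian line, KRT7, KRT8, KRT18, PAX8 and ERBB2 averaged at least 45.4 CPM in both groups, whereas EPCAM was at 1.55 CPM in NC against 1.37 in si-EIF5A2. KRT7, KRT8 and PAX8 fell with si-EIF5A2, so these markers moved with the comparison and their part in the results was not tested. The leukocyte markers PTPRC and CD3E had 0 counts in every library. Of the endothelial markers, PECAM1 and VWF stayed under 2 CPM on average, whereas TIE1 averaged 340 CPM in NC against 267 in si-EIF5A2. In bulk RNA, fewer cells that express a gene and less RNA per cell cannot be told apart.

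Throughout, a call means a fold change over 1.5 together with an adjusted p under 0.05, from the quasi-likelihood test of edgeR and the Benjamini-Hochberg method over 16208 tested genes. By this rule 5 of the 7 AP-1 genes were called, beside 24.6% of all genes tested. Of the members, 4 were called higher (11.1% of all genes) and 1 lower (13.6% of all genes). In all 7 genes the 3 libraries of one group lay wholly above or below those of the other, which held for 51.2% of all genes. The median log2 fold change was 0.69 over the 7 members and -0.01 over all genes. With 3 libraries against 3, an exact permutation test of a single gene cannot go below p = 0.1.

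**Figure D1:**
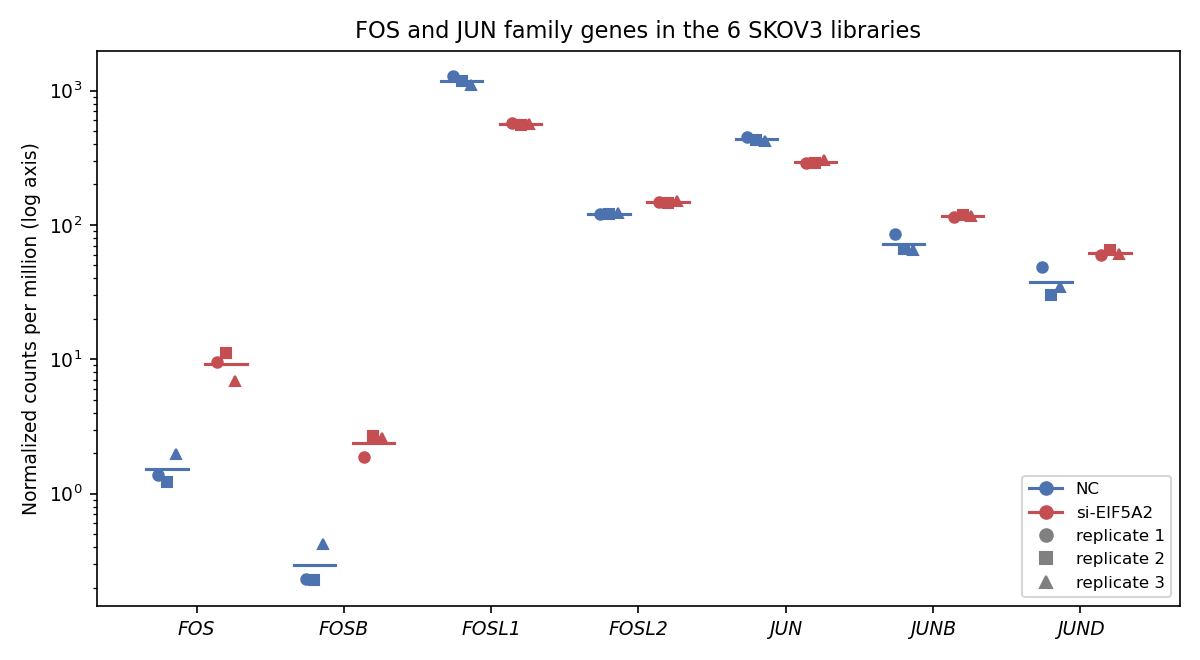
Level of each FOS and JUN family gene in normalized CPM on a log axis, 1 point per library, with circles, squares and triangles for replicates 1, 2 and 3 and a horizontal line at the group mean. Blue NC points and red si-EIF5A2 points do not overlap for any gene, and the levels span from under 1 CPM for FOSB in NC to at least 1100 CPM for FOSL1 in NC.

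The stretches just upstream of the RefSeq start sites are printed to show the elements that they carry. RefSeq promoters (build GRCh38.p14) were matched for 6 of the 7 genes; FOSL1 had no entry. RefSeq and GENCODE 29, which gives the gene positions below, place some starts differently: the RefSeq start lies 54 bases inside the GENCODE gene for FOS, 280 for JUN and 410 for FOSL2, and within 10 bases of the GENCODE start for FOSB, JUNB and JUND. The stretches of JUN and FOSL2 therefore lie wholly inside the GENCODE genes and are not printed. Each line gives bases -100 to -25 from the RefSeq start (counted as base 0) on the gene's strand, with TGACGT on either strand (part of the cAMP response element) and TATAAA (the TATA box) in capitals. They lie at chr14:75278728-75278803 (FOS, plus strand, the last 30 bases inside the GENCODE gene), chr19:45467896-45467971 (FOSB, plus), chr19:12791386-12791461 (JUNB, plus) and chr19:18281647-18281722 (JUND, minus).
FOS: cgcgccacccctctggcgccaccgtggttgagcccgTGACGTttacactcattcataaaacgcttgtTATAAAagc
FOSB: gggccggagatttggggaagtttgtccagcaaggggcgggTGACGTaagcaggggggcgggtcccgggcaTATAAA
JUNB: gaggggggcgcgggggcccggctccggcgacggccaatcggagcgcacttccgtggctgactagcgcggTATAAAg
JUND: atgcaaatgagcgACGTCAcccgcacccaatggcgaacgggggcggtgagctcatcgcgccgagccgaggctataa

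FOS and FOSB shared a layout in which TGACGT began at base -64 and -60 and TATAAA at base -33 and -30. FOSL2, which was not called, held TGACGT from base -66, counted from a RefSeq start that lies 410 bases inside the GENCODE gene. Whether TGACGT goes with the fold changes was not tested. Over the full 300 bases around each RefSeq start, TGACGT on either strand was present in 4 of the 6 members (FOS, FOSB, FOSL2 and JUND). It was present in 7.98% of 35116 RefSeq promoters. JUND held it 3 times, 2 of which were the overlapping parts of a full TGACGTCA, a sequence found in 1.85% of promoters. TATAAA was present in FOS, FOSB and JUNB and in 11.5% of all promoters. JUN alone held TGACATCA, an AP-1 and ATF site, at base -67, which 2.61% of promoters held. TGANTCA, the consensus AP-1 site, was found in FOSL2 only, just past the start at bases 4 to 10, and in 7.71% of promoters. CCAAT was found in the 3 JUN genes and in 34.6% of promoters, and a CArG box, the core of the serum response element, in 0 of the 6 windows and in 1.29% of promoters. The absence of a match says only that these letters are not in this window. All of these are matches of letters, and no binding was measured.

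FOS (ENSG00000170345), which lies on chromosome 14 from 75278774 to 75282230 on the plus strand (GENCODE 29, GRCh38, as for all positions below), was at 1.38, 1.21 and 1.96 CPM in the 3 NC libraries and at 9.58, 11.2 and 6.84 CPM in the 3 si-EIF5A2 libraries. The lowest si-EIF5A2 library was thus well above the highest NC library. The log2 fold change was 2.60 (SE 0.26, 95% CI 1.99 to 3.21), with an edgeR adjusted p of 0.000192. FOS ranked 86 from the top among the fold changes of all 16208 genes.

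FOSB (ENSG00000125740), which encodes the closest relative of FOS, lies on chromosome 19 from 45467995 to 45475179 (plus strand). Its levels were 0.233, 0.226 and 0.425 CPM in NC and 1.88, 2.70 and 2.61 CPM in si-EIF5A2. Each NC library lay under 1 CPM, not far above the limit for a count of 0 in that library, and each si-EIF5A2 library lay above 1 CPM. This gave a log2 fold change of 3.04 (SE 0.38, 95% CI 2.16 to 3.91, edgeR adjusted p = 0.000532), the largest of the family and rank 49 among all genes.

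Both genes were scarce, and counting error is correspondingly wide. With each sequenced fragment worth about 3.84 of the deposited counts, FOSB rested on about 14 fragments over the NC libraries (95% Poisson interval 7.65 to 23.5) and 94 over the si-EIF5A2 libraries (76.0 to 115). FOS rested on about 73 fragments in NC (57.2 to 91.8) and 365 in si-EIF5A2 (329 to 404). These intervals cover counting error only and do not overlap between groups for either gene. The coefficient of variation among the NC libraries was 25.6% for FOS and 38.4% for FOSB, the highest of the 7 genes.

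FOSL1 (ENSG00000175592), which encodes FRA-1, lies on chromosome 11 from 65892049 to 65900573 (minus strand). It was at 1285, 1170 and 1100 CPM in NC and at 570, 557 and 560 in si-EIF5A2. The si-EIF5A2 libraries differed from one another by little (coefficient of variation 1.25%), and all 3 lay far below the NC libraries. Its log2 fold change was -1.08 (SE 0.08, 95% CI -1.25 to -0.90, edgeR adjusted p = 3.23e-05).

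FOSL2 (ENSG00000075426), which encodes FRA-2 and lies on chromosome 2 from 28392448 to 28417312 (plus strand), was at 121, 121 and 123 CPM in NC and at 149, 146 and 151 in si-EIF5A2. Its spread within NC was the smallest of the family, with a coefficient of variation of 0.844%. The log2 fold change of 0.29 (SE 0.06, 95% CI 0.14 to 0.43) had an edgeR adjusted p of 0.00846, but the whole interval lay under the fold limit and FOSL2 was not called. The 2 FOS-related antigens therefore differed in direction, with intervals that do not overlap.

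**Figure D2:**
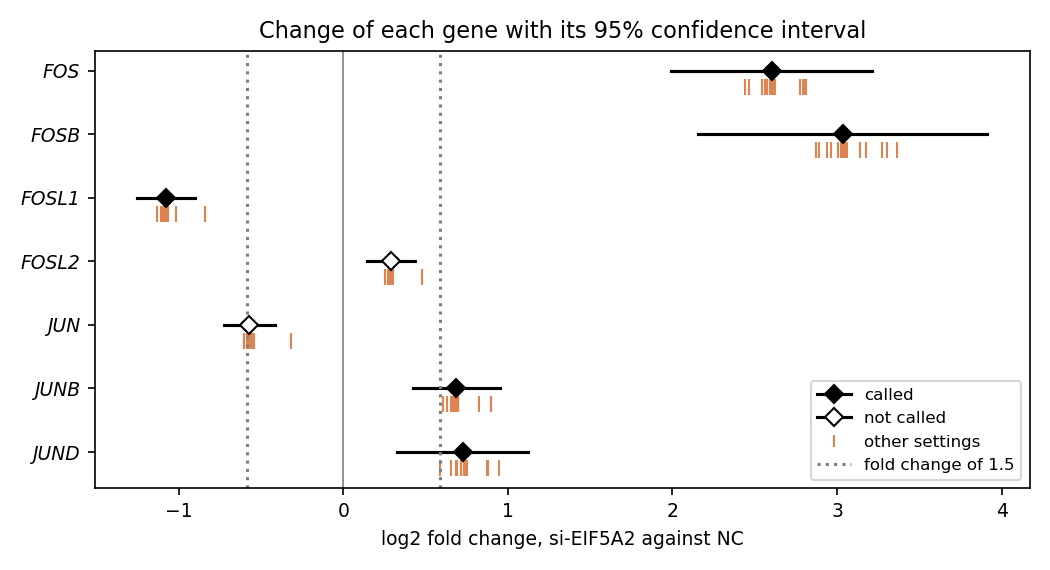
Log2 fold change of each gene in si-EIF5A2 against NC (diamonds, filled where called) with its 95% confidence interval (black lines). Orange ticks give the value under each of 16 other processing settings and the dotted lines mark a fold change of 1.5. FOS and FOSB stand furthest to the right, FOSL1 is the one gene called lower, and the intervals of JUN, JUNB and JUND cross the fold limit.

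JUN (ENSG00000177606), the founding member of its family and a target of the kinase JNK, is a single-exon gene on chromosome 1 from 58780788 to 58784327 (minus strand). Its levels were 451, 432 and 419 CPM in NC and 288, 287 and 303 CPM in si-EIF5A2. The highest si-EIF5A2 library stayed below the lowest NC library. The log2 fold change was -0.57 (SE 0.07, 95% CI -0.72 to -0.42) with an edgeR adjusted p of 0.000387, a value that sits beside the fold limit, and JUN was not called. It was called in 3 of 16 other settings, among them the fits that left out NC replicate 3 or si-EIF5A2 replicate 3, where the log2 fold change was -0.60.

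JUNB (ENSG00000171223), a weaker activator than JUN in many promoters, is a single-exon gene on chromosome 19 from 12791496 to 12793315 (plus strand). It was at 85.3, 66.4 and 64.9 CPM in NC and at 114, 120 and 116 in si-EIF5A2. NC replicate 1 stood above the other NC libraries, although still below all 3 si-EIF5A2 libraries. For JUNB this made a log2 fold change of 0.69 (SE 0.11, 95% CI 0.43 to 0.95, edgeR adjusted p = 0.0022). The exons of HOOK2 on the opposite strand overlap JUNB by 259 bases, and whether reads were counted by strand is not given in the sources used here. HOOK2 had at most 365 estimated counts per library, beside at least 3051 for JUNB.

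JUND (ENSG00000130522), the member usually expressed at a steady level in resting cells, is a single-exon gene on chromosome 19 from 18279760 to 18281622 (minus strand). Its levels were 48.2, 29.9 and 34.3 CPM in NC and 60.0, 65.6 and 60.3 CPM in si-EIF5A2. As for JUNB, NC replicate 1 was the highest of the control libraries, and the control spread (coefficient of variation 25.5%) was wider than that of the si-EIF5A2 libraries (5.08%). The log2 fold change was 0.73 (SE 0.17, 95% CI 0.33 to 1.12, edgeR adjusted p = 0.0127). Without NC replicate 3 the adjusted p was 0.0523 at a log2 fold change of 0.66, so the call was lost.

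The order of the 7 genes was compared on levels per length (RPKM, here CPM per kilobase of exon). In NC, FOSL1 stood at 628 ± 49.4 RPKM, followed by JUN at 123 ± 4.44, JUNB at 39.7 ± 6.25, JUND at 20.1 ± 5.13 and FOSL2 at 17.0 ± 0.143 RPKM. FOS, with libraries from 0.375 to 0.604 RPKM, and FOSB, at 0.0531 ± 0.0204 RPKM, were lowest. JUND and FOSL2 could not be ordered in NC, since the JUND libraries ran from 16.1 to 25.9 RPKM and enclosed those of FOSL2, whereas all other neighbours in the order were apart. The order in si-EIF5A2 was the same, at 298 ± 3.72 (FOSL1), 82.6 ± 2.60 (JUN), 63.9 ± 1.61 (JUNB), 33.3 ± 1.69 (JUND), 20.7 ± 0.345 (FOSL2), 2.84 ± 0.674 (FOS) and 0.431 ± 0.0811 RPKM (FOSB). FOS and FOSB thus remained the 2 scarcest members despite their rises. Among 16176 genes with a length, FOSL1 ranked 64 by RPKM in NC and 153 in si-EIF5A2, and FOS ranked 12679 and 7852.

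Summed over the family, FOS gene mRNA came to 645 ± 49.2 RPKM in NC and 322 ± 3.72 RPKM in si-EIF5A2, a ratio of 0.499. FOSL1 made up 97.3% of this sum in NC and 92.6% in si-EIF5A2, so the sum followed FOSL1. The share of FOSL2 was 2.64% in NC and 6.43% in si-EIF5A2, that of FOS 0.0735% and 0.881%, and that of FOSB 0.00838% and 0.134%.

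The summed JUN genes were at 182 ± 15.3 RPKM in NC and 180 ± 3.30 RPKM in si-EIF5A2, a ratio of 0.986 with ranges that overlap. Within that sum the make-up differed. JUN held 67.4% ± 3.32 of it in NC and 45.9% ± 1.33 in si-EIF5A2, JUNB 21.7% ± 1.53 and 35.6% ± 0.555, and JUND 10.9% ± 1.88 and 18.5% ± 0.782. The ratio of summed FOS to summed JUN genes was 3.54 ± 0.0951 in NC and 1.79 ± 0.0541 in si-EIF5A2. These sums are descriptions of mRNA, with no test.

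**Figure D3:**
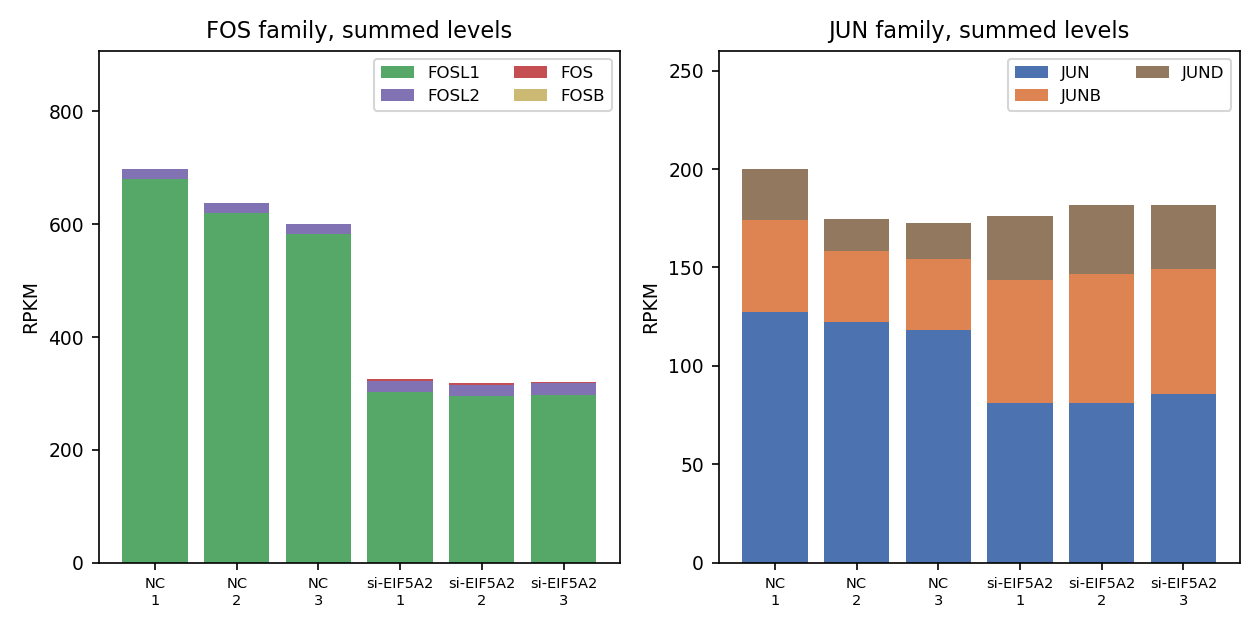
Stacked bars of RPKM per library, with the 4 FOS genes on the left and the 3 JUN genes on the right, 1 bar per library. FOSL1 fills nearly the whole FOS bar in all 6 libraries and its height drops in si-EIF5A2, whereas the JUN bars keep a like height with a smaller JUN portion and larger JUNB and JUND portions.

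AUUUA pentamers (ATTTA in the genome) in the 3′ untranslated region are the core of AU-rich elements, which mark many immediate early mRNAs for decay. In GENCODE 29, FOS held 5 in 806 bases, or 6.2 per kilobase, a density that 4.82% of 12730 genes reached. JUNB had 4.0 per kilobase (15.4% of genes reached this) and JUN 2.33 (38.5%). FOSL2, FOSL1, JUND and FOSB lay between 1.39 and 1.85 per kilobase, beside a median of 1.68 over all genes. By number, FOSL2 held the most, with 9 in 4864 bases, a count that 17.4% of genes reached. The 5 of FOS were reached by 33.2% of genes, and JUNB held only 2 in 500 bases (57.4%). How these pentamers relate to the fold changes was not tested.

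The FOS and JUN proteins also pair with ATF and MAF proteins, and 12 of the 15 such dimer partners listed could be tested. Of these, 4 were called (33.3%, beside 24.6% of all genes), 2 higher and 2 lower, with a median log2 fold change of -0.19. ATF4, the main effector of the integrated stress response, fell from 1367 ± 32.7 to 635 ± 22.4 CPM (log2 fold change -1.11, SE 0.06, edgeR adjusted p = 1.38e-05). The small MAF genes MAFF (78.6 ± 3.69 to 167 ± 5.48 CPM) and MAFG (65.7 ± 25.1 to 149 ± 12.1 CPM) rose. MAFG lost its call without si-EIF5A2 replicate 2 (log2 fold change 1.15, edgeR adjusted p = 0.0509) and with no filter on low counts (adjusted p = 0.0549), and NC replicate 1 was again the highest control library, at 94.6 CPM. The other gene called lower, NRL, fell outside the naming rule by its low level and is named here after its values were seen. Its mean was 0.824 CPM in NC against 0.245 in si-EIF5A2, and it was called in 6 of the 15 other settings that could test it. The call of NRL held with NC replicate 3 left out and was lost with any other library left out, with edgeR adjusted p-values from 0.0906 to 0.25. ATF3, a stress-induced partner, was at 6.12 ± 1.33 CPM in NC against 7.90 ± 0.0399 in si-EIF5A2 and was not called (edgeR adjusted p = 0.161).

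Of 35 listed regulators of AP-1, 34 were tested and 11 were called (32.4%, beside 24.6% of all genes), 6 higher and 5 lower, with a median log2 fold change of 0.05. With GC content and length offsets 8 were called, 5 higher and 3 lower. Among the kinases that signal to AP-1, 3 of 15 tested rose and 3 fell, beside 11.1% and 13.6% of all genes. The JNK arm was mixed: MAP2K7, which phosphorylates JNK, rose from 14.6 ± 1.20 to 27.8 ± 2.64 CPM and MAPK8 (JNK1) from 33.9 ± 4.68 to 52.3 ± 2.91 CPM, MAP3K1, which acts upstream, fell from 12.5 ± 1.18 to 6.73 ± 0.529 CPM, and MAPK9 (JNK2) was not called at 45.8 and 40.3 CPM. MAPK8 was called in 12 of 16 other settings, and its log2 fold change of 0.63 went to 0.52 without NC replicate 1 and to 0.57 without si-EIF5A2 replicate 1, both under the fold limit. It was also not called with GC content and length offsets (0.58). In the ERK arm, MAPK3 (ERK1) fell from 49.0 ± 2.58 to 31.2 ± 3.95 CPM and was called in 13 of 16 other settings, not without si-EIF5A2 replicate 1 (log2 fold change -0.57), with GC content and length offsets (-0.40) or with those offsets and a replicate block (-0.41). RPS6KA3 (RSK2), a kinase downstream of ERK, rose from 22.7 ± 2.04 to 36.5 ± 6.47 CPM, a call lost without si-EIF5A2 replicate 1 (log2 fold change 0.52). MAP2K5, the activator of ERK5, fell from 15.8 ± 0.595 to 6.36 ± 1.02 CPM (log2 fold change -1.31).

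Serum response factor, encoded by SRF, drives the FOS promoter together with ternary complex factors. SRF was at 86.0 ± 5.46 CPM in NC against 90.3 ± 3.69 in si-EIF5A2 with overlapping libraries (log2 fold change 0.07, 95% CI -0.11 to 0.25). Of the 9 promoter-binding factors tested, 2 were called (22.2%, beside 24.6% of all genes). ELK4, a ternary complex factor, rose from 11.2 ± 2.03 to 21.3 ± 4.14 CPM and MRTFB, a coactivator of SRF, fell from 7.97 ± 1.41 to 2.71 ± 1.22 CPM. FBXW7, a ubiquitin ligase subunit that targets JUN, rose from 10.2 ± 1.76 to 18.9 ± 1.18 CPM. It was the 1 gene called of 4 ligases (25%, beside 24.6% of all genes). Of 6 proteins that bind AU-rich elements, 1 rose and 1 fell, beside 24.6% of all genes called in either direction. The gene that rose was ZFP36L1, from 271 ± 22.7 to 425 ± 25.9 CPM (log2 fold change 0.65). It fell outside the naming rule by its rank and is named here after its values were seen. The gene that fell was KHSRP, from 242 ± 12.3 to 141 ± 6.79 CPM (log2 fold change -0.78). KHSRP lost its call with GC content and length offsets, where the value was -0.52.

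AP-1 target genes were taken from a list of 32 written from general knowledge with earlier results of these data known. Of these, 23 could be tested and 6 had 0 counts in every library. A total of 12 were called (52.2%, beside 24.6% of all genes), 9 higher and 3 lower, with a median log2 fold change of 0.33. The cytokine genes did not move one way. CXCL8, which encodes the chemokine interleukin-8, was at 41.5, 44.1 and 40.9 CPM in NC and at 378, 374 and 336 in si-EIF5A2, and CSF2, which encodes GM-CSF, rose from 1.19 ± 0.197 to 4.92 ± 0.353 CPM. IL11, which encodes interleukin-11, fell from 19.2 ± 0.649 to 3.88 ± 0.361 CPM. The log2 fold changes were 3.10 for CXCL8 (SE 0.08, edgeR adjusted p = 4.18e-06) and -2.31 for IL11 (SE 0.13, edgeR adjusted p = 1.18e-05).

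The matrix metalloproteinases MMP1 and MMP9 also differed in direction. MMP1, the interstitial collagenase, rose from 0.524 ± 0.328 to 2.75 ± 0.677 CPM, and MMP9, a gelatinase, went from 20.4 ± 4.74 to 13.0 ± 1.59 CPM (log2 fold change -0.65, edgeR adjusted p = 0.0252), a call kept in 10 of 16 other settings. The MMP9 call was lost without NC replicate 1 (log2 fold change -0.45), without si-EIF5A2 replicate 1 (-0.56) or 2 (-0.68), with a replicate block (-0.63, edgeR adjusted p = 0.0675), with GC content and length offsets (-0.40) and with both of these (-0.40, edgeR adjusted p = 0.104). EDN1, which encodes endothelin-1, rose from 1.58 ± 0.339 to 6.65 ± 1.22 CPM. CCND1, which encodes cyclin D1, fell from 1425 ± 84.5 to 831 ± 50.4 CPM (log2 fold change -0.78).

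**Figure D4:**
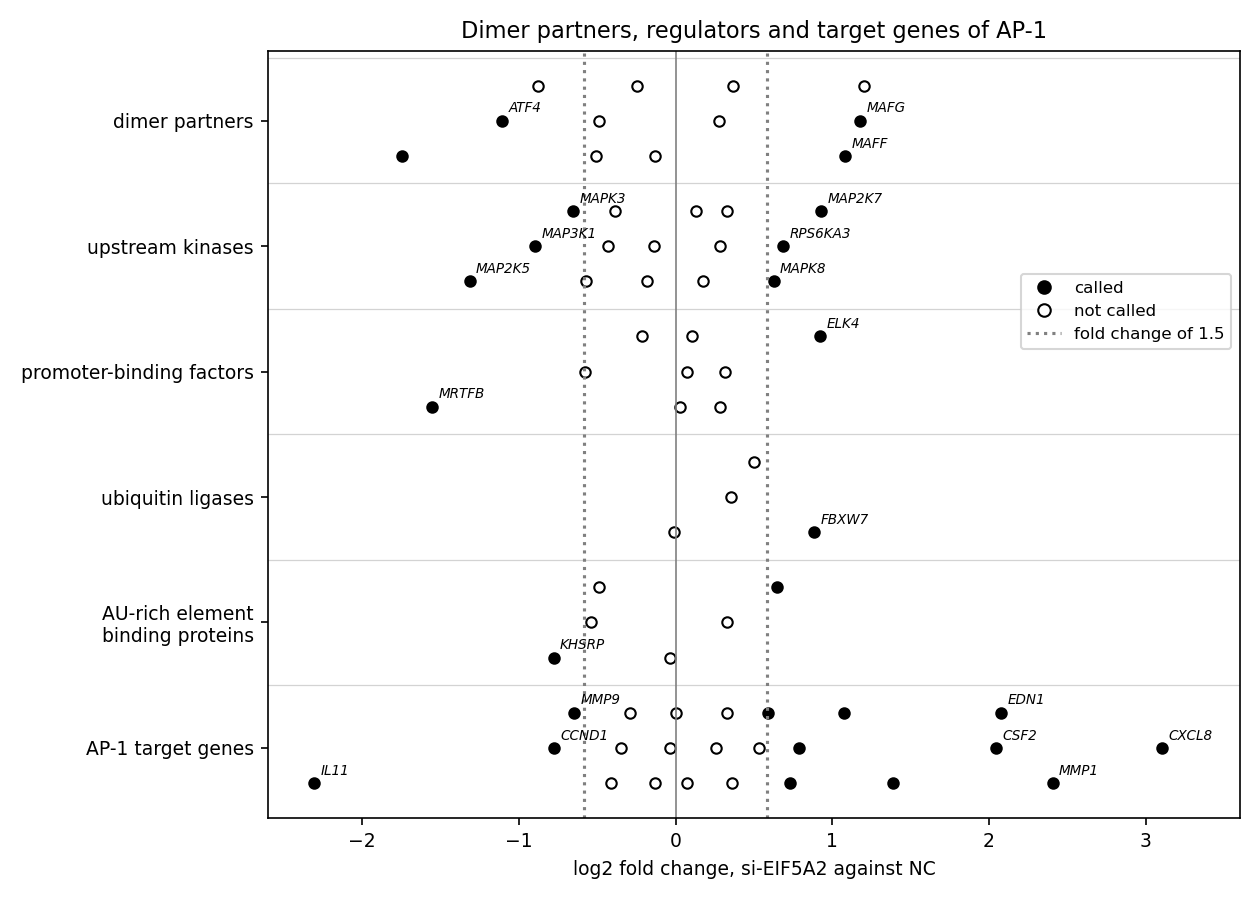
Log2 fold change of every tested dimer partner, regulator and target gene of AP-1, 1 point per gene and 1 band per list, filled where called, with dotted lines at a fold change of 1.5. Called genes lie on both sides of 0 in each list except the ubiquitin ligases, and the target genes reach furthest, from -2.31 (IL11) to 3.10 (CXCL8).

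Genes with the most similar pattern were sought among the 8839 genes that averaged 10 CPM or more, by Pearson's r of log2 CPM over the 6 libraries. The nearest were DCAF10 for FOS (r = 0.998), DNAAF2 for FOSB (r = 0.999), ZNF592 for FOSL1 (r = 0.999), PODXL for FOSL2 (r = 0.9997), DUSP4 for JUN (r = 0.999), ZNF865 for JUNB (r = 0.9995) and RER1 for JUND (r = 0.994). DUSP4 encodes a phosphatase of MAP kinases, and KRT7 came next to it for JUN. All of these values carry the gap between the groups, and r exceeded 0.95 for 117 genes (JUND) to 1170 genes (FOSL2). They describe 6 libraries and are given with no p.

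Offsets for GC content and length moved the members the most among the scalings tried. With them JUN stood at a log2 fold change of -0.32, FOSL1 at -0.84, JUNB at 0.90 and FOS at 2.79, and the median of all genes moved by 0.10. No member changed direction. The split of all called genes was 1792 higher and 2200 lower without the offsets and 2273 higher and 1827 lower with them.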

How the data were processed

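From paired-end mRNA libraries, the authors derived transcript abundance using StringTie and ballgown. The deposited table holds their estimated counts for each gene, in whole numbers and without normalization. Low values lie at multiples of about 3.84, so 1 fragment is worth several counts. The submitters' processing notes list Bowtie 0.12.2 and the mouse builds mm8 and mm9, whereas the gene identifiers are human; the aligner, build and annotation used are otherwise not given in the sources used here. Positions, lengths and GC content come from GENCODE 29 (GRCh38).

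Groups came from the sample titles. All 6 libraries entered 1 model in edgeR 4.0.16 (R 4.3.3) that contained the siRNA group and no other term (filterByExpr, TMM, robust quasi-likelihood fit, Benjamini-Hochberg adjustment over 16208 genes). The test was planned for counts, and the estimated counts needed no rounding. Standard errors are the log2 fold change over the square root of F. DESeq2 1.42.0 was one alternative. The procedure was tested on simulated data.

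The members and gene lists were chosen with earlier results of these data known. Named genes were all members and, per list, up to 4 called genes in each direction averaging 1 CPM or more, plus MAPK3, MAPK8, MAPK9, SRF and ATF3. Some listed genes are not reported here. Tests were 2-sided.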

Additional observations from a re-analysis of the deposited data

How the results depend on the processing

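Over 16 alternatives per gene, all planned, 108 values for the 7 genes kept their direction and their side of the threshold, 3 gained a call, 1 lost it and 0 were reversed. JUN became called with no filter on low counts (-0.60), and its values ran from -0.60 to -0.54 with 1 library left out, and it was called when either NC replicate 3 or si-EIF5A2 replicate 3 was left out (both -0.60). JUND ran from 0.59 to 0.95 with 1 library left out, and its call was lost without NC replicate 3 (0.66). FOS ran from 2.44 to 2.81, FOSB from 2.87 to 3.36, FOSL1 from -1.13 to -0.84 and JUNB from 0.61 to 0.90 over all alternatives, all called. At an unadjusted p under 0.05 and a fold change over 2, the counts of called genes were 3 members, 2 regulators, 7 target genes and 2370 of all genes, in place of 5, 11, 12 and 3992. With no filter on low counts, 2 dimer partners were called in place of 4. Replicate numbers occur in both groups, but same-numbered libraries did not deviate together (r = -0.0244, 0.00522 and -0.00269). No pairing was thus seen, which cannot show that these libraries share nothing but a number. With a replicate block 5 members and 3731 of all genes were called. Lengths of the longest transcript moved RPKM in NC to 0.704 for FOS, 0.0781 for FOSB, 710 for FOSL1 and 18.1 for FOSL2 and left the order as it was. Depth limits FOSB most, at about 14 fragments in NC. Leaving out 1 library leaves 2 in a group, and the cause of the shifts was not tested.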

Other observations

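The nearest neighbour of FOSL1 was also called lower, as were 13.6% of all genes tested. CCDC85B, a protein-coding gene on the opposite strand that lies 413 bases from FOSL1, averaged 237 CPM in NC against 107 in si-EIF5A2 (log2 fold change -1.15, SE 0.16, edgeR adjusted p = 0.00145), and it was called lower in all 16 alternatives. It was chosen after its values were seen. The exons of CCDC85B and FOSL1 do not overlap in GENCODE 29. ERCC1, whose span overlaps that of FOSB on the opposite strand with 0 bases of shared exon, had 7509 to 14880 estimated counts per library, beside 16 to 141 for FOSB. FOSL2-AS1, antisense to FOSL2, had at most 23 counts in a library.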
